A study of Mus musculus with 2 samples.

Results

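The 14-3-3 proteins are small acidic adaptors that bind phosphorylated serine or threonine sites on other proteins. The array held 15 cDNA clones of 6 14-3-3 genes, namely Ywhaz, Ywhae, Ywhaq, Ywhab, Ywhah and Ywhag, taken as every clone whose symbol in the deposited table began with Ywha. These were 6 of 8144 gene symbols and 15 of 16896 features. The family was chosen by the HuR and IgG scores of the Ywhaz clones in these same data, so all values are given as a description with no test.

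The study recovered the RNA held by HuR, the product of Elavl1, which binds messages rich in A and U, from untreated proliferating C2C12 cells, a mouse myoblast line. The cells were collected at 80% confluency from medium with 20% serum and 1% antibiotics. In one sample the immunoprecipitation used the monoclonal anti-HuR antibody 3A2, and in the other the control antibody IgG, called IgG1 in the file headers. Each of the 2 samples had 3 array runs, unnumbered, numbered 3 and numbered 4, and no label says whether a run repeats the hybridisation or the immunoprecipitation.

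A 14-3-3 dimer clasps its partner in a pair of grooves, and by doing so it hides a localisation signal, blocks an enzyme or holds partners together. In muscle cells the family is known for keeping class II histone deacetylases and FoxO factors in the cytoplasm, and it also binds the cell death protein Bad and the phosphatase Cdc25c. Ywhab, Ywhag, Ywhae, Ywhah, Ywhaq and Ywhaz encode the beta, gamma, epsilon, eta, theta and zeta isoforms, which form homodimers and heterodimers.

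Scores are z scores of each run, centred on the run's median within each of the 2 sections of the table. Each HuR run was paired with the IgG run of the same number, and the IgG score was subtracted. A difference is the mean of the 3 results, with their SD, both in z score units. The SD is the spread between array runs and says nothing of the spread between independent immunoprecipitations. With 1 sample per antibody no test between the antibodies was possible. The differences of all features correlated between run pairs at 0.03 to 0.31, while scores correlated at 0.77 to 0.88 between runs of the same antibody. Of the myoblast markers listed, Vim, an intermediate filament of mesenchymal cells, was the only 1 of 10 with a named clone, so the cell type could not be checked. Vim stood at the 71.0th percentile of signal, which is the mean of the HuR and IgG scores, with a difference of -0.10 ± 0.19. Listed markers of other tissues were about as bright. By their brightest clone, Krt18, Alb and Apoa1 stood above Vim, at percentiles of 95.6, 77.4 and 76.3. Ttr, Hbb-b1 and Nefl stood below it, at 70.0, 61.8 and 56.8. The number of arrays limits the precision.

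Of the 15 clones, 2 were at least 1 unit higher with HuR, against 1.13% of all features. None of the 15 was at least 1 unit lower, against 0.166% of all features. Both higher clones were of Ywhaz, and the other 2 Ywhaz clones lay just below 0. The 11 clones of the other genes ran from -0.28 to 0.48. The median over the 15 clones was 0.13 ± 0.15, beside -0.03 over all features, and by run pair it was 0.14 (unnumbered), 0.15 (number 3) and -0.11 (number 4). It was -0.075 without pair 3.

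**Figure D1:**
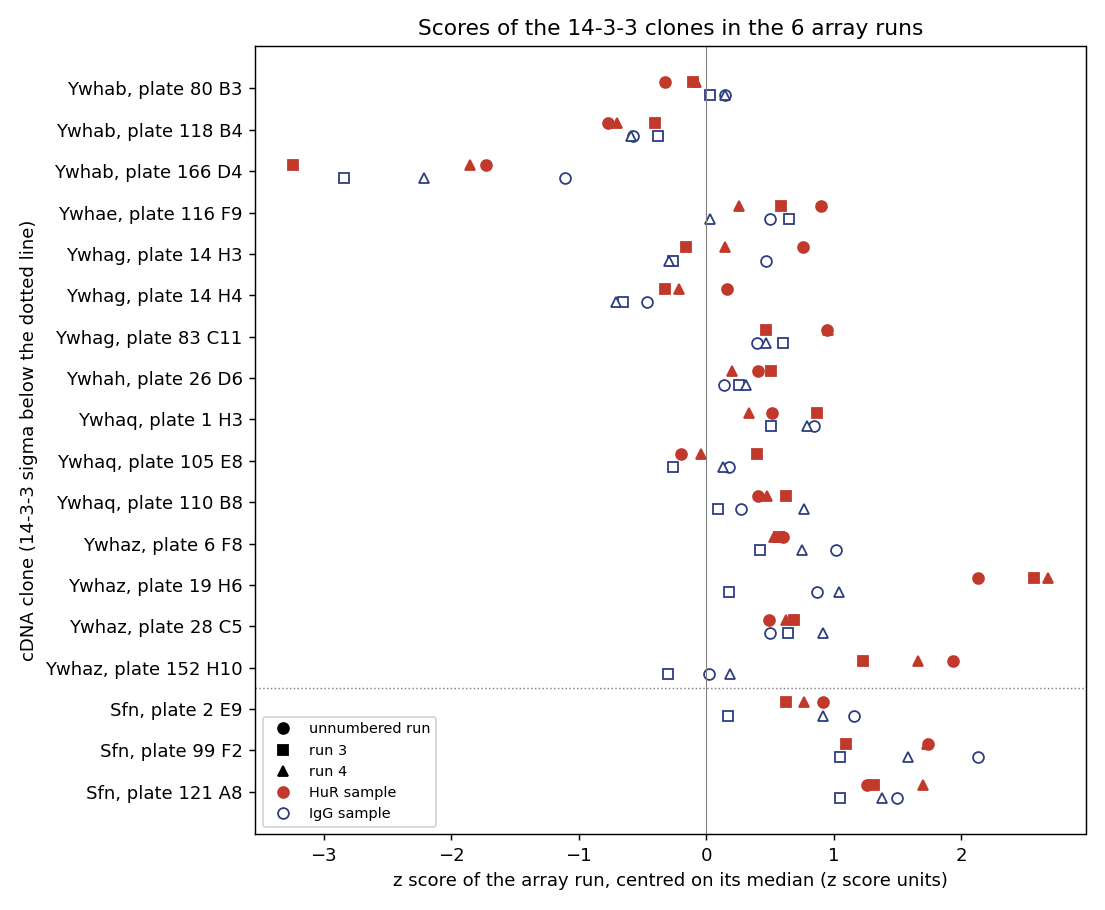
Centred z score (x axis, z score units) of each clone (y axis, by source plate and well) in the 3 HuR runs (filled) and the 3 IgG runs (open), with a marker shape per run. The Ywhaz clones of plate 19 and plate 152 have all HuR runs to the right of all IgG runs, with no overlap, while the other Ywhaz clones and the 14-3-3 sigma clones (Sfn, below the dotted line) overlap.

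Ywhaz encodes the zeta isoform (Entrez Gene 22631). Its clone in well H6 of plate 19 had HuR scores of 2.13, 2.57 and 2.68 in the unnumbered run, run 3 and run 4. The IgG scores of this clone were 0.87, 0.18 and 1.04. Every HuR run thus lay above every IgG run, and the nearest 2 were more than 1 unit apart. The difference was 1.76 ± 0.58, made up of 1.26 in the unnumbered run pair, 2.39 in pair 3 and 1.64 in pair 4.

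The Ywhaz clone in well H10 of plate 152 had HuR scores of 1.94, 1.23 and 1.66 in the same order of runs. The IgG scores of this clone were 0.02, -0.30 and 0.19. The runs of the antibodies did not overlap here either, and the IgG runs stood near the median of the array. The difference was 1.64 ± 0.24, with 1.92, 1.53 and 1.47 in the run pairs. These 2 clones, on different plates and in different sections of the table, ranked 44th and 57th of 16896 features from the highest difference. In the authors' deposited table their z ratios were 5.89 and 5.47.

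The other Ywhaz clones did not rise. The clone in well F8 of plate 6 had HuR scores of 0.60, 0.57 and 0.53 and IgG scores of 1.02, 0.42 and 0.75. The clone in well C5 of plate 28 had HuR scores of 0.49, 0.69 and 0.63 and IgG scores of 0.50, 0.64 and 0.92. In both, the runs of the antibodies overlapped, and the differences of -0.16 ± 0.29 and -0.08 ± 0.18 were smaller than their spread. The authors' deposited table gave these clones z ratios of -0.55 and -0.27.

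Each higher Ywhaz clone exceeded each lower one in every run pair. The 4 gaps between single clones ran from 1.72 ± 0.23 to 1.93 ± 0.29, with SDs of 0.23 to 0.54, and the lowest value in any run pair was 1.27. The mean of the higher clones less that of the lower ones was 1.83 ± 0.03. This SD is small because opposite swings of the higher clones cancel in their mean. An upward swing in pair 3 that the higher and lower clones share also cancels in the subtraction. The mean of the higher pair was 1.70 ± 0.22, with a swing upward in pair 3 to 1.96, and that of the lower pair was -0.12 ± 0.19, with a swing upward in pair 3 to 0.10. The gene value taken as the median of 4 clones, 0.78 ± 0.12, therefore stood where no Ywhaz clone lay.

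The clones differed in the deposited annotation as they did in their values. All 4 carried the same symbol, Entrez Gene number and UniGene cluster. The description of the 2 higher clones named the mouse Ywhaz mRNA, and both were placed in the same TIGR cluster of expressed sequences. The description of the 2 lower clones named the human kinase substrate HASPP28, which is not a 14-3-3 protein, and both were placed in another TIGR cluster. The table listed no other feature in either cluster, though many features have no name and some have no TIGR entry. Which transcript the lower clones hold was not tested, since their sequences were not used here. With the 2 clones described as HASPP28 left out, the Ywhaz value was 1.70 ± 0.22.

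**Figure D2:**
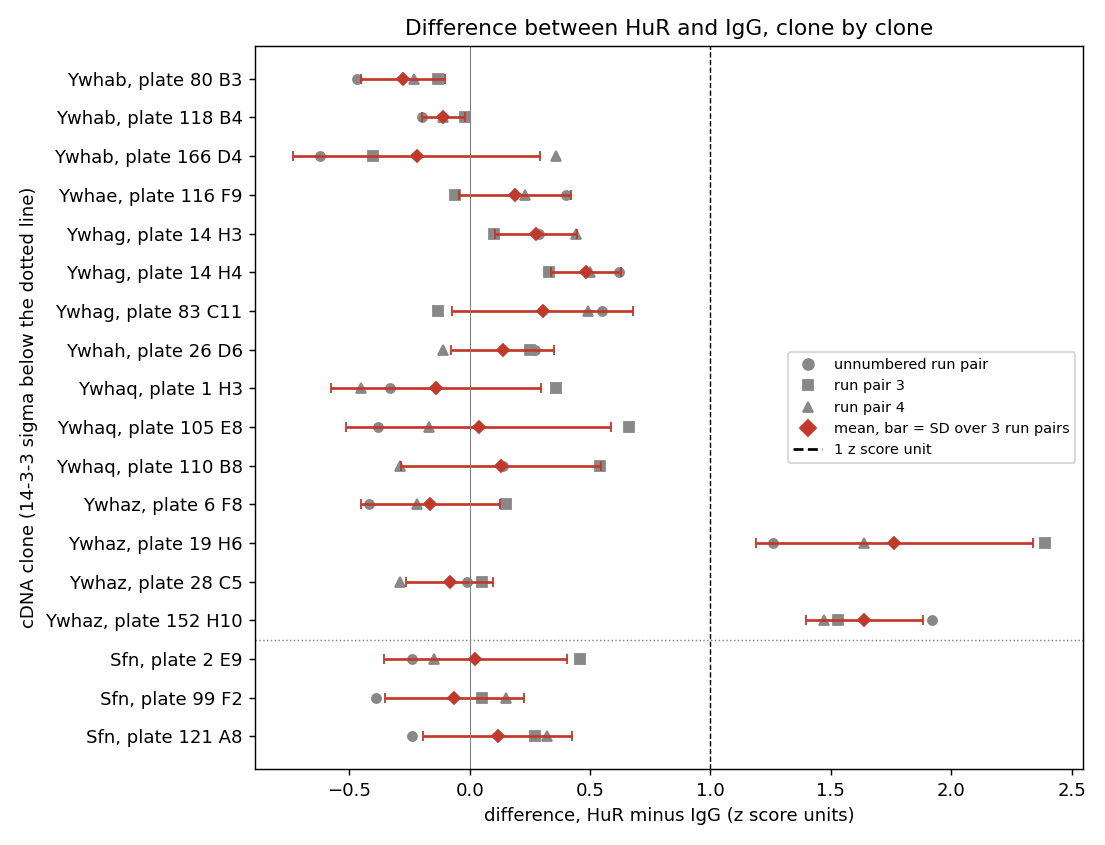
Difference HuR minus IgG in z score units (x axis) for each clone (y axis), with grey markers for the 3 run pairs and a red diamond and bar for their mean ± SD; the dashed line marks 1 unit. Only the Ywhaz clones at 1.76 and 1.64 lie beyond the line, and the next 14-3-3 clone, of Ywhag, is at 0.48.

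For scale, the spread between the highest and lowest clone was 1.93 units for Ywhaz, and for the other 78 genes with exactly 4 named clones it ran from 0.08 to 1.83. The median over all 79 was 0.45. Since the family was chosen for this disagreement, the place of Ywhaz in this order supports nothing. Among genes other than those of the 14-3-3 family, clone pairs of a gene differed by a median of 0.19 in the same cluster (2102 pairs) and 0.20 in different clusters (1043 pairs). Gaps of at least 1 unit made up 2.71% and 3.55% of these pairs. Where 1 clone was at least 1 unit higher, so was the other in 70 of 114 ordered pairs of the same cluster and in 14 of 44 of different clusters. Clones of Actb made up many of the former, and without Actb the counts were 14 of 58 and 14 of 44. Pairs of a gene share clones and are not independent.

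**Figure D3:**
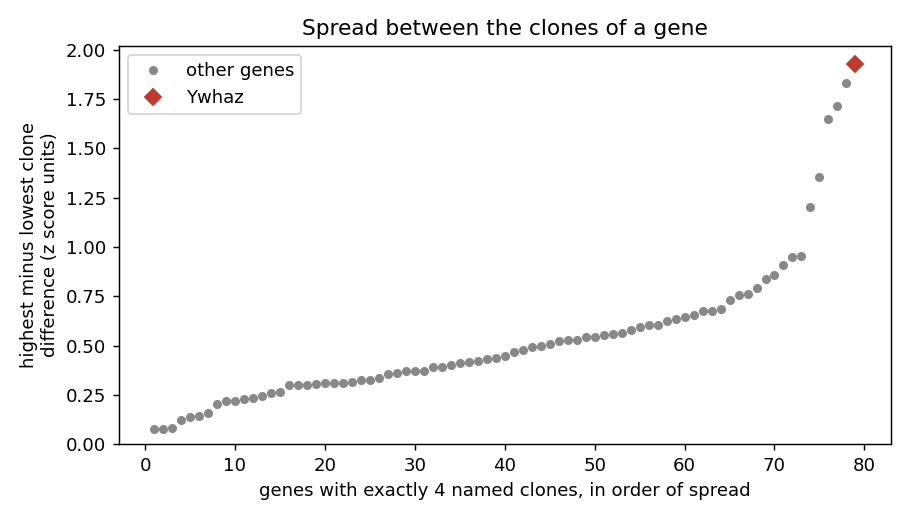
Highest minus lowest clone difference in z score units (y axis) for the 79 genes with exactly 4 named clones, in order of that spread (x axis). Ywhaz, the red diamond, stands last at 1.93, and the median gene is at 0.45.

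Each clone was also set beside its neighbours, both in the source plate and on the array, with clones of the same gene left out. The wells adjoining the Ywhaz clone of plate 19 had a median difference of -0.06 and a highest value of 0.26. Those adjoining the clone of plate 152 had a median of 0.04 and a highest value of 0.39. On the array itself, the spots within 2 rows and 2 columns had medians of -0.22 and -0.19, and the highest of them was 0.25. Both higher clones thus stood well above every neighbour measured in either layout. For the lower clones of plate 6 and plate 28, the adjoining wells had medians of -0.175 and -0.30. Less these medians they were at 0.01 and 0.22, beside SDs of 0.29 and 0.18. Their neighbours on the array had medians of 0.05 and 0.02, with highest values of 0.89 and 0.82.

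Ywhag, the gamma isoform (Entrez Gene 22628), was above 0 on each of 3 clones, at 0.28 ± 0.17, 0.30 ± 0.38 and 0.48 ± 0.15. For the highest, in well H4 of plate 14, the HuR scores were 0.16, -0.32 and -0.21 and the IgG scores -0.46, -0.65 and -0.71. Every HuR run lay above every IgG run, as in 3 of the 15 clones and 3.92% of all features. It was a dim clone, at the 31.5th percentile of signal. The authors' deposited table gave it a z ratio of 1.61.

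The 2 Ywhag clones of plate 14 were in adjoining wells, H3 and H4, and are not independent in position. On the array each lay next to a spot of plate 10 with a high difference. The spot beside the H3 clone was of Adnp, at 2.01, and the spot beside the H4 clone was of Crtap, at 2.07, with a spot of AI586158 at 1.56 diagonal to it. The spots within 2 rows and 2 columns had medians of -0.08 and -0.04, and less these medians the clones were at 0.36 and 0.52. In the source plate the adjoining wells had medians of -0.46 and -0.27, and less those the clones were at 0.73 and 0.75. The part of the high spots in the Ywhag values was not tested. The third Ywhag clone, in well C11 of plate 83, had no neighbour above 0.38, and its HuR scores of 0.95, 0.47 and 0.96 overlapped IgG scores of 0.40, 0.60 and 0.47. Its difference of 0.30 was smaller than its SD.

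Ywhab, the beta isoform (Entrez Gene 54401), was below 0 on each of 3 clones, at -0.11 ± 0.09, -0.22 ± 0.51 and -0.28 ± 0.17. In the clone of well B3 of plate 80, HuR scores of -0.32, -0.10 and -0.08 lay below IgG scores of 0.15, 0.03 and 0.15. It was the only 1 of the 15 clones with every HuR run below every IgG run, against 2.63% of all features. The adjoining wells had a median of -0.18 and a highest value of 0.06, and less that median it was at -0.09. None of the Ywhab clones was in the brighter 50% of features. The clone of plate 166 was among the dimmest of the array, at the 0.90th percentile of signal, and its runs ranged from -3.24 to -1.11.

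Ywhaq, the theta isoform (Entrez Gene 22630), had 3 clones on 3 plates, at -0.14 ± 0.44, 0.04 ± 0.55 and 0.13 ± 0.42. Their direction went with the run pair. All 3 clones were above 0 in pair 3, at 0.36, 0.66 and 0.54, and below 0 in pair 4, at -0.45, -0.17 and -0.29. In the unnumbered pair they were at -0.33, -0.38 and 0.14. The gene value was 0.04 ± 0.49. Within any pair the 3 clones differed from each other by less than each of them differed between pairs. On the array, a spot of C78891 at 1.15 ± 0.23 lay within 2 rows and 2 columns of the lowest clone, in well H3 of plate 1. The spots in that window had a median of 0.06, and less this the clone was at -0.20. The part of the high spot in its value was not tested.

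Ywhae, the epsilon isoform (Entrez Gene 22627), had 1 clone, with HuR scores of 0.90, 0.59 and 0.26 and IgG scores of 0.50, 0.65 and 0.03. The difference was 0.19 ± 0.23. Ywhah, the eta isoform (Entrez Gene 22629), also had 1 clone, with HuR scores of 0.41, 0.51 and 0.20 and IgG scores of 0.14, 0.26 and 0.31. The difference was 0.14 ± 0.21. In both genes the runs overlapped and the difference was within its SD.

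In order of the gene difference, Ywhaz at 0.78 was followed by Ywhag at 0.30 ± 0.24, Ywhae at 0.19, Ywhah at 0.14, Ywhaq at 0.04 and Ywhab at -0.22 ± 0.20. From Ywhag down, no neighbours in this order differed by more than the larger of their SDs. Of the 11 clones outside Ywhaz, 4 had a difference larger than their SD and 1 had one larger than 2 SD. No such share over all features is given here, so nothing is read from these counts. Over the 15 clones, 4 were higher in every run pair, against 11.2% of all features, and 2 were lower in every run pair, against 12.2%. Of the 4, 2 were the Ywhaz clones and 2 the Ywhag clones of plate 14. In the authors' deposited table, 3 of the 15 had a two-tailed p under 0.05 with a higher HuR score, against 4.15% of all features, and 1 had such a p with a lower score, against 3.33%. These were both higher Ywhaz clones, the dim Ywhag clone of well H4 and the Ywhab clone of plate 80, and how that p was computed is not stated in the file headers. A difference above 0 was found in 9 of the 15, against 44.4% of all features.

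The sigma isoform, encoded by Sfn and known from epithelial cells, was outside the rule because its symbol does not begin with Ywha. For 2 clones the table gave Mkrn3 in 1 symbol column and Sfn in the other, under the Entrez Gene number of Sfn. The remaining clone had no symbol and was described as the human 14-3-3 sigma gene. They were bright, at the 78.7th to 92.7th percentile of signal, and their differences were 0.02 ± 0.38, -0.06 ± 0.29 and 0.12 ± 0.31. The HuR and IgG runs overlapped in all 3.

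Among the features most like the higher Ywhaz clones in all 6 runs, by Euclidean distance from their mean profile, were clones of Set, AI649275, C78859 and Hmgb1, at distances of 0.54 to 0.90. Set encodes a chromatin and phosphatase-inhibiting protein, and Hmgb1 a chromatin protein. The nearest Set clone was at 1.30 ± 0.05 and the nearest Hmgb1 clone at 1.51 ± 0.38. Their neighbouring wells had medians of 0.17 and 0.18. The nearest clones were picked by their HuR and IgG scores, so their high differences follow from that choice and support nothing. The other Set clones were at 1.04 to 1.39. Those of Hmgb1 were at 1.38 to 1.80, but for 1 clone at 0.35 ± 0.82. The clones of AI649275 (1.44) and C78859 (1.64) had neighbouring wells with medians of 1.06 and 1.03. C78859 had 1 other clone, at 0.14. Nearest to the lower Ywhaz clones in the same search were clones of Rpl27 and Rpl22, which encode ribosomal proteins, and Tbp, the TATA-binding protein. They lay at distances of 0.10 to 0.15, and their differences of -0.20 to -0.12 likewise follow from the choice. The other clones were at -0.15 and 0.22 for Rpl27, -0.08 for Rpl22 and -0.65 ± 0.86 for Tbp.

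Proteins that 14-3-3 proteins bind were described from a list of 61 genes, of which 28 had a named clone. Of these, 13 were above 0 and 14 below, with a median of -0.01 ± 0.15, beside -0.04 over 7790 named genes, of which 42.4% were above 0. None was at least 1 unit higher, against 0.988% of named genes, and none was at least 1 unit lower, against 0.103%. The highest were Zfp36l1, which binds AU-rich messages itself, at 0.43 ± 0.43, and Akt1s1, an inhibitor of the mTOR complex, at 0.28 ± 0.21. The lowest were Crtc2, a coactivator of CREB, at -0.89 ± 0.62 on a clone at the 0.57th percentile of signal, and the tyrosine kinase Abl1, at -0.39 ± 0.55. Cdc25c was at 0.05 ± 0.29.

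Kinases and phosphatases that write or erase 14-3-3 binding sites were described from a list of 44 genes, of which 24 had a named clone. Of these, 11 were above 0 and 13 below, with a median of -0.03 ± 0.02, and none was at least 1 unit higher or lower. The highest were Camk2d, a calcium-dependent kinase, at 0.51 ± 0.73, and Mark2, which phosphorylates microtubule-associated proteins, at 0.49 ± 0.17. The lowest were Prkcd, a protein kinase C, and Ppp2cb, a catalytic subunit of protein phosphatase 2A, both at -0.27, with SDs of 0.55 and 0.47. Akt1, which creates 14-3-3 sites on FoxO factors and Bad, was at -0.05 ± 0.38. The medians of both lists lay within 0.03 units of that of all named genes.

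**Figure D4:**
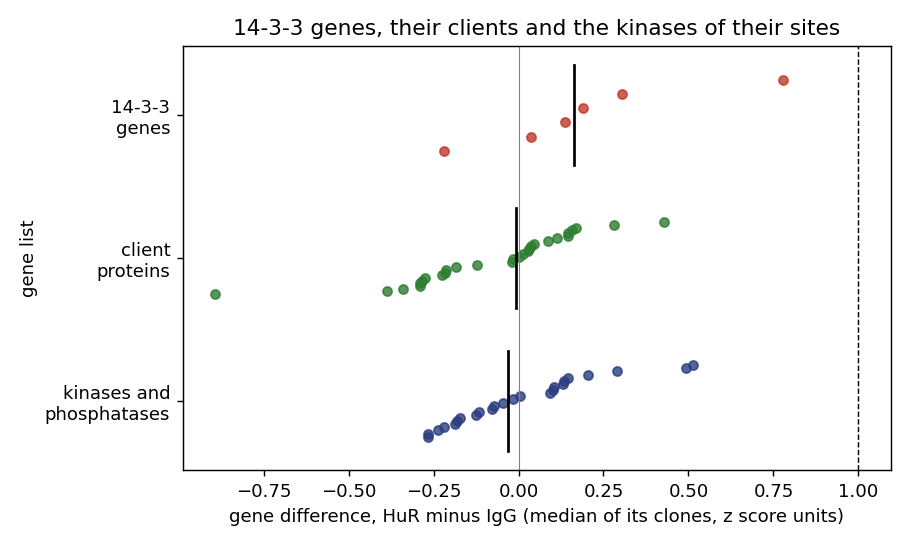
Gene difference, HuR minus IgG, in z score units (x axis) for the 6 14-3-3 genes, 28 client genes and 24 kinase and phosphatase genes (y axis); each point is a gene, taken as the median of its clones, and black bars are list medians. No gene reaches the dashed line at 1 unit, Ywhaz is rightmost at 0.78, and the medians of the other lists lie near 0.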

How the data were processed

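RNA from 1 HuR and 1 IgG immunoprecipitate was reverse transcribed with a radiolabelled nucleotide, per the labels' protocols, and measured on spotted cDNA clones. For the scanner, the log base and the background correction, the answer is not given in the sources used here. Per-run z scores were deposited by the authors, per the file headers, and each run had an SD of 1.00 within each section. A p-value (two-tailed) and a z ratio per feature were deposited too, and are used only as the authors' values. The z ratio equalled the score difference over the SD of all differences (0.300), within 0.021.

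Each run was centred on its median per section (Python 3.11.15, pandas 2.3.3). Runs of the same number were paired for the SD, since after subtraction of each antibody's mean their scores correlated over features (0.42, 0.54 and 0.33), and those of unlike number did so at -0.48 to 0.08. Genes were named by Entrez Gene number from RefSeq (GRCm38.p6), which matched all 15 clones. The 1 unit threshold, the members and the lists were chosen with earlier results of these data known. Named genes were all 14-3-3 clones, the 2 highest and 2 lowest of each list, the nearest profiles, and genes at 1 unit or more beside a 14-3-3 clone; Cdc25c and Akt1 were added for their roles after their values were seen. One of the nearest profiles is not reported here. The difference and centring steps were tested on simulated data. Per the labels, nothing says that runs came from separate cultures.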

Additional observations from a re-analysis of the deposited data

How the results depend on the processing

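The count of 2 higher clones was 2 under each alternative setting, but many of these could not change it. Thresholds of 0.6 and 1.5 could not, since the lower of these clones was at 1.64 and the next clone at 0.48. Nor could leaving out a run pair or taking the median of pairs. Both clones were above 1 unit in each run pair, and no other clone was in any. The filters on signal kept both clones. Of 152 values of single clones under alternatives, 77 could not move past the SD of their run pairs, because the setting leaves out a run pair, takes their median or only filters on signal. Of the other 75, 70 moved by no more than that SD and 5 by more. With the median of adjoining source wells subtracted, the lower Ywhaz clones crossed 0, to 0.01 and 0.22, the latter a move past its SD. Ywhaq clones changed sign both ways. Ywhaz as a gene was at 0.91, Ywhag at 0.73 with a clone spread of 0.55, and the kinase and phosphatase median at 0.0346. Ywhaz was at 1.76 by its brightest clone and 1.70 without the clones described as another gene. The brightest clone, of plate 19, was so partly through its high HuR scores, which enter the signal. Its IgG mean was 0.70, beside 0.73 for the lower clone of plate 6. With 1 run pair left out, Ywhaz ran from 0.65 to 0.87, the median of the 15 clones from -0.075 to 0.17, the spread of the Ywhab clones from 0.16 to 0.40, and the kinase and phosphatase median from -0.0625 to 0.02. With the median of run pairs, the clone spreads of Ywhab and Ywhaq were 0.29 and 0.47 and the kinase and phosphatase median 0.035. In the brighter 50% of features the Ywhag spread was 0.0267 and the kinase and phosphatase median -0.075. There, 3 of 11 client and 6 of 16 kinase and phosphatase genes were above 0. In the brightest 25% the client and the kinase and phosphatase medians were -0.18 and -0.0767, with 2 and 1 genes above 0. These settings hold fewer genes, with no share over all named genes given. The kinase and phosphatase median was 0.0058 with array neighbours subtracted and -0.0933 by the brightest clone. Array neighbours, the sigma clones and the omission of clones described as another gene were added after seeing the data. The other causes were not tested. Background correction was not run, because the files hold scores. No paired analysis was possible with 1 sample for each antibody. The files give no background level, so a dim clone may hold no signal.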
